A study of Mus musculus with 90 samples.

Results

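The glucuronidation genes Ugt1a1, Ugt1a5, Ugt1a6a, Ugt1a6b and Ugt1a9, the related genes Ugt3a1 and Ugt3a2, and Ugdh were measured by RNA sequencing in the livers of 90 female Diversity Outbred (J:DO) mice. The 8 genes were found by symbol among the 18223 genes of the deposited tables, and all 8 passed the low-count filter. The zileuton group held 49 animals given zileuton, an inhibitor of 5-lipoxygenase used against asthma, at 300 mg/kg by mouth once a day for 7 days. The vehicle group held 41 animals given sterile distilled water on the same schedule, and animals were assigned to the groups at random, per the labels. All animals were 6 to 20 weeks old, and their single ages are not used here. The stock is outbred, so each animal carried its own mixture of founder genomes, and 1 library was made from 25 mg of each liver. Of the zileuton animals 34 were agouti, 6 black and 9 white, and of the vehicle animals 29 were agouti, 6 black and 6 white.

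UDP-glucuronosyltransferases sit in the membrane of the endoplasmic reticulum and join a sugar to bilirubin, bile acids, hormones and drugs, which makes them soluble enough to be exported into bile or blood. The sugar donor is UDP-glucuronate, which Ugdh makes from UDP-glucose in the cytosol, and the liver is the main organ for both steps. The Ugt1a genes are unusual in that 1 locus carries a row of alternative first exons, each with its own promoter, spliced to 1 common set of later exons. The first exon encodes the part of the enzyme that binds the substrate, and the common exons encode the part that binds UDP-glucuronate. The Ugt3a enzymes are relatives that, in human, use other sugar donors.

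On build mm10 (GENCODE release M21, GRCm38), the 5 Ugt1a members lie on the plus strand of chromosome 1 and all end in the same exons. Ugt1a9 spans 88070800 to 88218997, Ugt1a6b 88103252 to 88219003, Ugt1a6a 88134809 to 88218997, Ugt1a5 88166012 to 88218997 and Ugt1a1 88211959 to 88218997. Each has 5 exons in the transcript compared here, of which the last 4 are common to the 5 genes. The common exons hold 1311 bases, which is 57.9% to 59.9% of each transcript. Ugt3a1 (9276888 to 9315032) and Ugt3a2 (9335550 to 9370955) are neighbours on the plus strand of chromosome 15, and Ugdh (65413221 to 65435949) lies on the minus strand of chromosome 5.

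Reads from the common Ugt1a exons fit all 5 genes, so only reads that reach a first exon tell the genes apart. The first exons differ, with 58.7% to 61.2% identical bases between any pair of them except Ugt1a6a and Ugt1a6b. The first 60 coding bases of the 3 Ugt1a genes called higher with zileuton show how their first exons diverge (Ugt1a1 at chr1:88212002-88212061, Ugt1a5 at chr1:88166052-88166111, Ugt1a9 at chr1:88070830-88070889, all plus strand).
Ugt1a1: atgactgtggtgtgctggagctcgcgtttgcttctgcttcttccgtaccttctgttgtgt
Ugt1a5: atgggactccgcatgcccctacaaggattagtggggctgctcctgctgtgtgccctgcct
Ugt1a9: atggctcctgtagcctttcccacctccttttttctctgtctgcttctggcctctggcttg
The first exons of Ugt1a6a and Ugt1a6b were 97.0% identical over 858 coding bases, with 26 bases that differed and a longest identical stretch of 251 bases. Capitals mark the 15 bases that differ in the 120 coding bases where the genes differ most (Ugt1a6a at chr1:88138714-88138833, Ugt1a6b at chr1:88107182-88107301, plus strand).
Ugt1a6a: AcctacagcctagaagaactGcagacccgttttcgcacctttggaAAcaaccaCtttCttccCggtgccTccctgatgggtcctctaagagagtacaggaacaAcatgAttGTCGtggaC
Ugt1a6b: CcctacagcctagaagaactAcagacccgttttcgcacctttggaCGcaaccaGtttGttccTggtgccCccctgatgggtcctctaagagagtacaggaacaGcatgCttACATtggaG
The split of counts between Ugt1a6a and Ugt1a6b therefore rests on few bases and is given as uncertain, with their sum beside it.

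Promoters of 6 of the 8 genes were matched in RefSeq (GRCm38.p6). The 250 bases before the RefSeq start are shown for the 4 genes that were called higher with zileuton. RefSeq and GENCODE place the start of Ugdh differently, so part of its window lies inside the GENCODE span given above. Capitals mark matches, on either strand, to GCGTG (the core bound by the aryl hydrocarbon receptor) and TGACNNNGC (an antioxidant response element). Ugt1a1 is at chr1:88211709-88211958, Ugt1a5 at chr1:88165762-88166011 and Ugt1a9 at chr1:88070529-88070778 on the plus strand, and Ugdh is at chr5:65435843-65436092 on the minus strand.
Ugt1a1 promoter: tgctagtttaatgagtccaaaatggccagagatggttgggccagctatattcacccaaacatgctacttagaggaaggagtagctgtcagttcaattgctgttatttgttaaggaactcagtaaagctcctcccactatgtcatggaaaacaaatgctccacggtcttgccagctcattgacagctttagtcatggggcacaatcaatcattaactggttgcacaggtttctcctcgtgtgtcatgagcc
Ugt1a5 promoter: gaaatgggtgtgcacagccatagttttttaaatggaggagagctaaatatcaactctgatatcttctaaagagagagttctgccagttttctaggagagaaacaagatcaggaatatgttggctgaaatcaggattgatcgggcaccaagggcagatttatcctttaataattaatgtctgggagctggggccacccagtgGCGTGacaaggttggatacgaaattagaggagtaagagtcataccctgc
Ugt1a9 promoter: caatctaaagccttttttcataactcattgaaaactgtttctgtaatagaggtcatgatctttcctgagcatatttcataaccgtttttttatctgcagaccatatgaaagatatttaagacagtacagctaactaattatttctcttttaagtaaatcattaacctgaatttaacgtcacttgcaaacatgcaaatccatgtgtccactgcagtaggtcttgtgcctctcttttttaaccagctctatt
Ugdh promoter: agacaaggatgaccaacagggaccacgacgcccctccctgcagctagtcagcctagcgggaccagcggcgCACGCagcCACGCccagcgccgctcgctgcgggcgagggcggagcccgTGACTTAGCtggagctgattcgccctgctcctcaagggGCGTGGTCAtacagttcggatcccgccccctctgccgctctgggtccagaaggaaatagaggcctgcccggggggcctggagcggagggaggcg
GCGTG was found once in Ugt1a5, 49 bases before the start, and 3 times in Ugdh, and 28.2% of 32851 RefSeq promoter windows of the same length hold it. TGACNNNGC was found 2 times in Ugdh, where 1 match overlaps a GCGTG, and 10.2% of windows hold it. Neither run of letters was found in these windows of Ugt1a1 and Ugt1a9. A match is only a run of letters, and no binding was measured.

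Libraries held 12664579 to 38865109 estimated counts in zileuton animals and 13064928 to 41360187 in vehicle animals, with medians of 25083838 and 26105475. Hepatocyte markers summed to 81251 to 178414 library-scaled counts (CPM) in zileuton livers and 98249 to 191168 CPM in vehicle livers, and 5 of their 10 genes were called lower and 1 higher. Skeletal muscle markers reached 2166 CPM in 1 zileuton library and 3638 CPM in 1 vehicle library, against medians of 0.494 and 0.567 CPM. Markers of cholangiocytes, Kupffer, endothelial and stellate cells were detected in every library at summed levels of 16.1 to 414 CPM in zileuton livers and 17.5 to 569 CPM in vehicle livers. Of the tested markers, 1 of 6 for cholangiocytes was lower (Sox9, log2 fold change -0.86, edgeR adjusted p = 5.79e-07), as were 2 of 6 for stellate cells (Pdgfrb, -0.28, adjusted p = 0.00133; Dcn, -0.21, adjusted p = 0.00804), 1 of 6 for endothelial cells (Clec4g, -0.18, adjusted p = 0.0236) and 0 of 6 for Kupffer cells, and none was higher. Lymphocyte markers summed to 0.936 to 8.26 CPM with zileuton and 0.974 to 23.01 CPM with vehicle, with 1 of 5 lower (Cd3g, -0.49, adjusted p = 0.00916). Pancreas and adipose markers summed to 11.1 to 67.8 CPM with zileuton and 9.61 to 92.4 CPM with vehicle, with 1 of 3 lower (Cela1, -0.999, adjusted p = 1.35e-05), and 0 of 2 kidney and intestine markers were called. Over all genes tested, 14.4% were called higher and 14.8% lower. In liver RNA, fewer cells of a type and less RNA per cell cannot be told apart. The part of cell composition in the results was not tested. A score of circadian clock genes (mean of 11 genes of 1 phase minus mean of 5 of the opposite phase, in SD units) differed between the groups, with a median of 1.29 and a range of -2.16 to 3.03 in zileuton livers and a median of -1.55 and a range of -2.85 to 2.60 in vehicle livers. Animal numbers fell into 8 runs of 50, and within a run zileuton animals held numbers 25 to 50 and vehicle animals numbers 13 to 20, so treatment and this position cannot be told apart. What the numbers mark is not given in the labels.

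Of the 8 genes, 4 were called higher with zileuton (Ugdh, Ugt1a1, Ugt1a9 and Ugt1a5) and 0 lower, against 29.3% of the 13248 genes tested called in either direction, 14.4% higher and 14.8% lower (edgeR quasi-likelihood test, adjusted p under 0.05). Ugt1a6a, Ugt1a6b, Ugt3a1 and Ugt3a2 did not pass. The median log2 fold change was 0.29 over the 8 genes and -0.01 over all genes tested. CPM values below are scaled by TMM (trimmed mean of M-values), and errors of log2 fold changes are standard errors (SE).

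**Figure D1:**
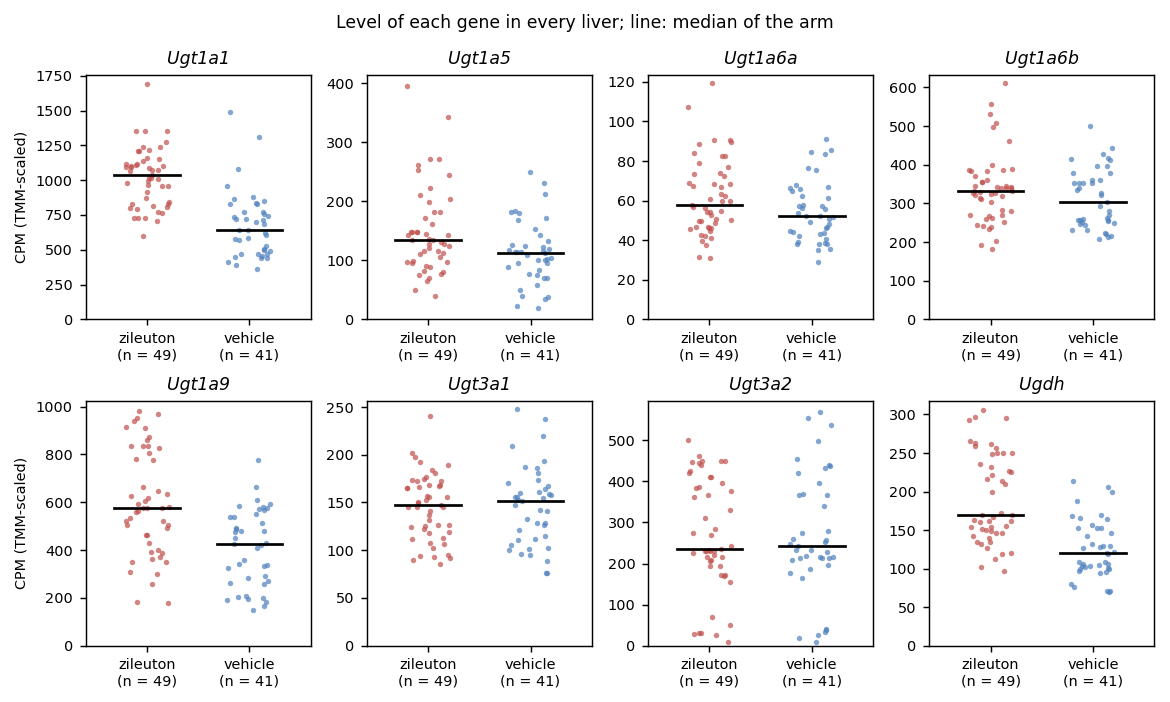
Level of each of the 8 genes in every liver, in TMM-scaled CPM on linear axes that start at 0, with 49 zileuton animals left of 41 vehicle animals; each point is 1 animal and the line is the median of the group. Ugt1a1 and Ugdh stand higher in most zileuton livers, and the Ugt3a1 and Ugt3a2 groups lie level with each other. In Ugt3a2, 7 zileuton and 6 vehicle animals lie low, below a gap.

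Ugdh, which supplies the sugar donor, was higher in zileuton livers. Its level ran from 97.4 CPM through a median of 169 CPM to 306 CPM in zileuton livers, and from 69.9 through 120 to 213 CPM in vehicle livers. The ranges overlapped, but 19 zileuton animals lay above the highest vehicle animal and 8 vehicle animals below the lowest zileuton animal. The means were 191 ± 58.4 CPM (SD, n = 49) with zileuton and 126 ± 37.4 CPM (SD, n = 41) with vehicle, a log2 fold change of 0.60 ± 0.092 (1.51-fold, adjusted p = 1.93e-07). The vehicle median was exceeded in 45 of 49 zileuton livers.

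Ugt1a1, the enzyme that conjugates bilirubin, was the most abundant of the 8 genes and rose to a similar degree. Its lowest, median and highest levels were 596, 1035 and 1692 CPM in zileuton livers, against 361, 644 and 1489 CPM in vehicle livers. At the top, 1 zileuton animal lay above the highest vehicle animal and 3 vehicle animals reached 1078 to 1489 CPM, while at the bottom 17 of 41 vehicle animals lay below every zileuton animal. The means were 1022 ± 213 CPM (SD, n = 49) with zileuton and 680 ± 238 CPM (SD, n = 41) with vehicle, and the log2 fold change was 0.59 ± 0.083 (1.504-fold, adjusted p = 1.96e-08). All but 1 of the 49 zileuton livers exceeded the vehicle median.

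Ugt1a9, whose human counterpart conjugates bulky phenols, rose as well but varied more from animal to animal. It ran from 179 through 575 to 982 CPM in zileuton livers and from 151 through 424 to 776 CPM in vehicle livers. In 15 zileuton animals the level exceeded the highest vehicle level, and 12 zileuton animals lay below the vehicle median. Mean levels were 595 ± 220 CPM (SD, n = 49) with zileuton and 409 ± 160 CPM (SD, n = 41) with vehicle, with a log2 fold change of 0.54 ± 0.12 (1.46-fold, adjusted p = 3.44e-04).

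Ugt1a5 passed the threshold narrowly. The lowest, median and highest levels were 40.4, 134 and 396 CPM in zileuton livers and 19.3, 113 and 249 CPM in vehicle livers. Most of the 2 groups overlapped, with 6 zileuton animals above every vehicle animal and 5 vehicle animals below every zileuton animal. The means were 149 ± 73.7 CPM (SD, n = 49) with zileuton and 113 ± 53.9 CPM (SD, n = 41) with vehicle, and the log2 fold change was 0.40 ± 0.15 (1.32-fold, adjusted p = 0.0364). Leaving out any 1 of zileuton replicates 4, 9, 10 or 21 ended the call (adjusted p = 0.0592, 0.0511, 0.0641 and 0.0506), over a range of 0.0183 to 0.0641 when each of the 90 libraries was left out in turn.

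Ugt1a6a and Ugt1a6b, whose rat and human counterparts conjugate small planar phenols, did not pass. Ugt1a6a ran from 31.1 through 57.8 to 119 CPM in zileuton livers and from 28.8 through 52.2 to 91.0 CPM in vehicle livers. Ugt1a6b ran from 182 through 332 to 612 CPM in zileuton livers and from 209 through 304 to 500 CPM in vehicle livers. The groups overlapped over nearly their whole ranges for both genes. The log2 fold change was 0.18 ± 0.088 for Ugt1a6a (adjusted p = 0.114) and 0.11 ± 0.076 for Ugt1a6b (adjusted p = 0.294). Their summed counts, which do not depend on the split between the near-identical copies, gave 400 ± 99.9 CPM (SD, n = 49) with zileuton and 368 ± 86.5 CPM (SD, n = 41) with vehicle, a log2 fold change of 0.12 ± 0.073 (adjusted p = 0.217).

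Summed over the 5 Ugt1a members, the output of the locus was higher in the zileuton group, with overlapping ranges. The sum ran from 1537 through 2182 to 2964 CPM in zileuton livers, against 1131 through 1541 to 2651 CPM in vehicle livers, and 48 of 49 zileuton animals lay above the vehicle median. The means were 2166 ± 298 CPM with zileuton (SD, n = 49) and 1569 ± 308 CPM with vehicle (SD, n = 41), a log2 fold change of 0.47 ± 0.050 (1.38-fold, adjusted p = 4.52e-12). This error was smaller than that of any single Ugt1a gene. With the table's 3 other Ugt1a genes added, the log2 fold change was 0.46 ± 0.049 and 49 of 49 zileuton animals lay above the vehicle median.

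Within the sum, the share of Ugt1a1 was larger and the shares of both Ugt1a6 genes were smaller with zileuton. Ugt1a1 made up 47.1% ± 6.67 of the 5 genes' counts in zileuton livers (SD, n = 49) and 42.5% ± 7.93 in vehicle livers (SD, n = 41), a difference of 4.59 percentage points (two-sided permutation test, 100000 resamples, p = 0.00402, adjusted over the 5 shares 0.00670). Ugt1a6b made up 15.8% ± 4.54 with zileuton and 20.3% ± 4.87 with vehicle, and 10 of 49 zileuton animals lay above the vehicle median (permutation p = 3.00e-05, adjusted 1.50e-04). Ugt1a6a made up 2.91% ± 0.957 with zileuton and 3.54% ± 0.984 with vehicle (permutation p = 0.00258, adjusted 0.00645). The shares are parts of 1 whole, so they are not independent of each other. The shares of Ugt1a9 (27.3% ± 9.18 with zileuton, 26.5% ± 10.1 with vehicle) and Ugt1a5 (6.88% ± 3.27 with zileuton, 7.17% ± 3.26 with vehicle) did not pass (permutation p = 0.691 for Ugt1a9 and 0.670 for Ugt1a5, both 0.691 when adjusted). Between single animals the split varied far more than between groups, since Ugt1a9 held as little as 9.31% and as much as 46.9% of the sum in zileuton livers, and 9.12% to 45.5% in vehicle livers.

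**Figure D2:**
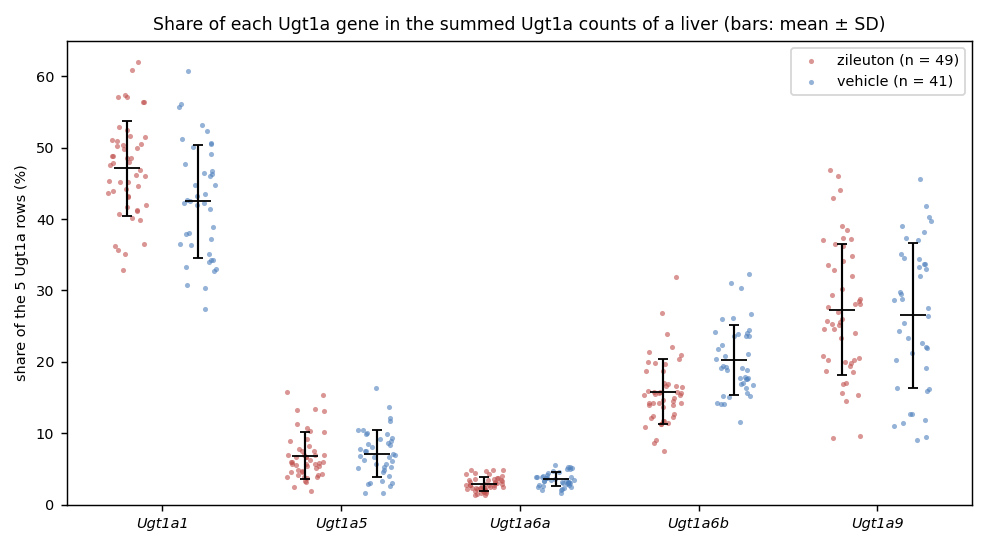
Share of each Ugt1a gene in the summed counts of the 5 Ugt1a genes, in percent, for 49 zileuton animals (left of each pair) and 41 vehicle animals; points are animals and bars are the mean ± SD. Ugt1a1 averages 47.1% with zileuton and 42.5% with vehicle, Ugt1a6b averages 15.8% and 20.3%, and the Ugt1a9 share ranges from 9.31% to 46.9% with zileuton and from 9.12% to 45.5% with vehicle.

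Ugt3a1, whose human counterpart transfers N-acetylglucosamine, was level between the groups. It ran from 86.1 through 147 to 240 CPM in zileuton livers and from 75.9 through 152 to 248 CPM in vehicle livers. The means were 145 ± 34.5 CPM with zileuton (SD, n = 49) and 146 ± 41.6 CPM with vehicle (SD, n = 41), and the log2 fold change was -0.01 ± 0.080 (adjusted p = 0.957). Of the zileuton animals, 22 of 49 lay above the vehicle median.

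Ugt3a2, whose human counterpart uses UDP-glucose and UDP-xylose, differed little between the groups on average but widely between animals. Its lowest, median and highest levels were 8.73, 234 and 500 CPM in zileuton livers, against 7.82, 243 and 568 CPM in vehicle livers. The log2 fold change was 0.01 ± 0.22 (adjusted p = 0.989), with an SE above that of the other 7 genes. The highest level was 57.3 times the lowest in zileuton livers and 72.7 times in vehicle livers, whereas for Ugt3a1, its neighbour on the chromosome, these ratios were 2.79 and 3.26.

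The Ugt3a2 levels of each group were split at their widest gap on the log scale, with gaps at the outermost animals not considered. That gap was 2.22-fold in zileuton livers and 4.09-fold in vehicle livers. Below it the zileuton levels were scattered, since the lowest, 8.73 CPM, and the next, 26.6 CPM, lay further apart than the gap itself. In zileuton livers 7 animals lay between 8.73 and 70.3 CPM and the other 42 between 156 and 500 CPM. In vehicle livers 6 animals lay between 7.82 and 40.2 CPM and the other 35 between 164 and 568 CPM. The low animals made up 14.3% of the zileuton group and 14.6% of the vehicle group. Above the gap the means were 310 ± 105 CPM (SD, n = 42) with zileuton and 312 ± 119 CPM (SD, n = 35) with vehicle. No run of animal numbers held more than 1 low animal of a group. By coat, the low animals were 3 of 34 agouti, 3 of 6 black and 1 of 9 white in the zileuton group, and 2 of 29, 1 of 6 and 3 of 6 in the vehicle group. These subsets were found from the values themselves and were not tested.

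**Figure D3:**
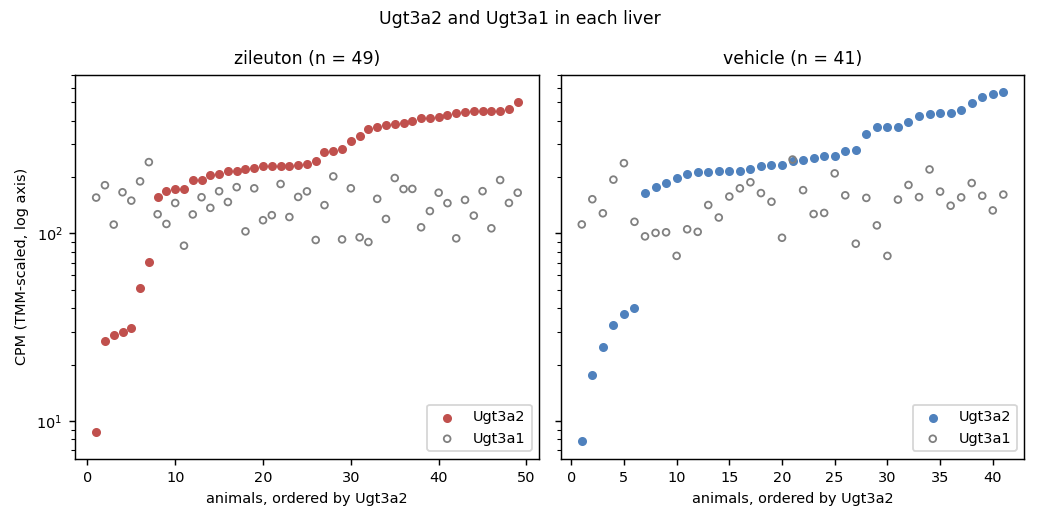
Ugt3a2 (filled points) and Ugt3a1 (open points) in each liver, in TMM-scaled CPM on a log axis, with animals ordered by Ugt3a2, zileuton (n = 49) left and vehicle (n = 41) right. The lowest 7 zileuton animals and the lowest 6 vehicle animals are set apart by a gap in Ugt3a2, while Ugt3a1 in the same animals runs from 112 to 240.1 CPM with zileuton and from 112 to 237 CPM with vehicle.

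On the TPM scale (counts scaled by joined exon length and library), the order of medians was nearly the same in both groups. The joined exons of Ugdh (6752 bases) and Ugt1a6a (4312 bases) are longer than a coding transcript of each (2550 and 2265 bases). The TPM and rank of Ugdh and Ugt1a6a therefore depend on the length used and are uncertain. Ugt1a1 stood first at a median of 1235 TPM in zileuton livers and 762 TPM in vehicle livers, followed by Ugt1a9 at 694 TPM with zileuton and 477 TPM with vehicle. Ugt1a6b had medians of 356 TPM with zileuton and 321 TPM with vehicle, and Ugt3a2 of 204 TPM with zileuton and 194 TPM with vehicle. Ugt1a5 (161 TPM with zileuton, 124 TPM with vehicle) and Ugt3a1 (143 TPM with zileuton, 131 TPM with vehicle) were neighbours whose order changed. Ugt3a1 was the higher of these 2 genes in 19 of 49 zileuton animals and 25 of 41 vehicle animals. The difference between these 2 genes was not tested. Ugdh followed at 64.5 TPM with zileuton and 45.9 TPM with vehicle, and Ugt1a6a was lowest at 34.8 TPM with zileuton and 30.9 TPM with vehicle. Within animals, Ugt1a1 exceeded Ugt1a9 in 45 of 49 zileuton and 32 of 41 vehicle livers, and Ugdh exceeded Ugt1a6a in 47 of 49 zileuton and 35 of 41 vehicle livers. For the Ugt1a genes these levels include an estimated part of the common exons.

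The calls of Ugdh, Ugt1a1 and Ugt1a9 held in 15 of 15 fits with other scaling, filters, tools, covariates or subsets, apart from the terms treated next, and in 8 of 8 fits that left out a run. With a term for each run of 50 animal numbers, the log2 fold changes were 0.62 for Ugt1a1, 0.53 for Ugt1a9 and 0.65 for Ugdh (edgeR, adjusted p = 7.59e-09, 7.57e-04 and 8.47e-09), while Ugt1a5 missed the threshold at 0.40 (adjusted p = 0.0538) and Ugt1a6a passed at 0.23 (adjusted p = 0.0472), in a fit that called 14.9% of all genes higher and 15.6% lower. With the clock score as a term, which follows the groups, Ugt1a1 at 0.37 (adjusted p = 0.0359) and Ugdh at 0.49 (adjusted p = 0.0197) passed, and Ugt1a9 at 0.31 (adjusted p = 0.328) and Ugt1a5 at 0.46 (adjusted p = 0.215) did not. In that fit 1.80% of all genes were called higher and 1.09% lower. With the position of the animal number in its run as a term, 0 of the 8 genes passed, at 0.56 for Ugt1a1 (adjusted p = 0.0806), 0.55 for Ugt1a9 (adjusted p = 0.287), 0.47 for Ugdh (adjusted p = 0.212) and 0.08 for Ugt1a5 (adjusted p = 0.934), where 1.25% of all genes were called higher and 0.385% lower. Over all 25 alternatives other than leaving out 1 library, the adjusted p ran from 3.15e-11 to 0.0806 for Ugt1a1, from 1.51e-09 to 0.212 for Ugdh, from 5.46e-06 to 0.328 for Ugt1a9, from 0.0205 to 0.934 for Ugt1a5 and from 0.0472 to 0.848 for Ugt1a6a.

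**Figure D4:**
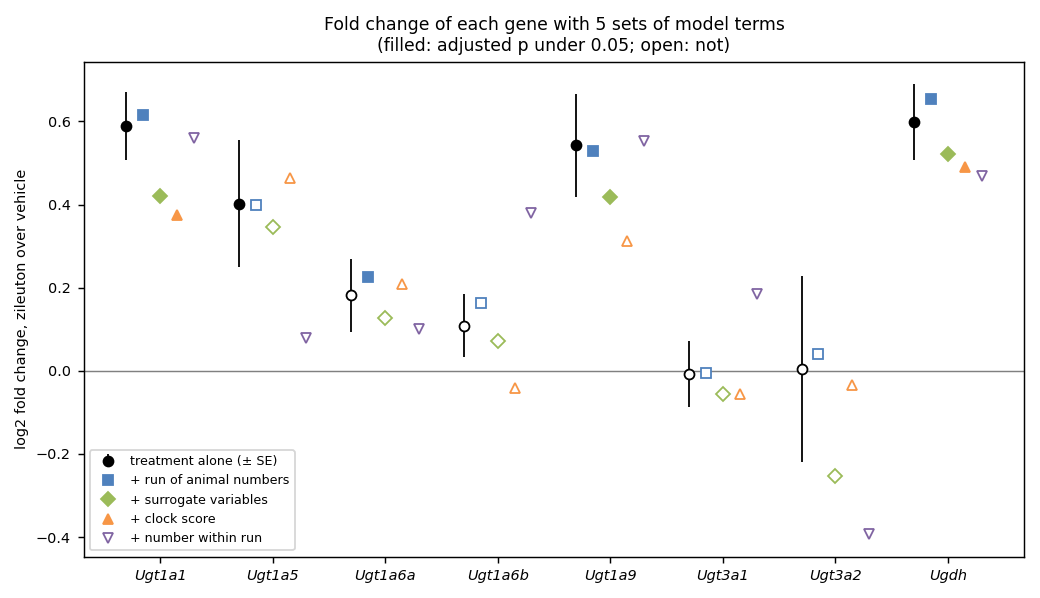
Log2 fold change of each gene, zileuton over vehicle, from edgeR fits with treatment alone (black, bars are ± SE) and with 4 further terms added in turn; filled symbols have an adjusted p under 0.05 and open ones do not. Ugt1a1 lies between 0.37 and 0.62 and Ugdh between 0.47 and 0.65 in all 5 fits, and the Ugt1a5 value drops to 0.08 with the position of the animal number in its run as a term.

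Within each run the difference of mean log2 CPM was above 0 in 8 of 8 runs for Ugt1a1 (0.20 to 0.98) and for Ugdh (0.32 to 1.06). Ugt1a9 was higher with zileuton in 7 of 8 runs, with a range of -0.43 to 1.27, and the exception was run 4 with 12 zileuton and 5 vehicle animals. Ugt1a5 was higher in 6 of 8 runs (-0.13 to 0.89), Ugt1a6a in 7 (-0.07 to 0.61) and Ugt1a6b in 6 (-0.27 to 0.60). Ugt3a1 and Ugt3a2 were each higher in 5 of 8 runs. Ugt1a1 and Ugdh were thus the pair whose direction was the same in every run.

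The response did not differ detectably by coat colour. An edgeR test of the interaction of treatment with coat called 0 of 13248 genes (0.00%), with 737 genes and 1 of the 8 members at an unadjusted p under 0.05, and DESeq2 also called 0. That member was Ugdh (unadjusted p = 0.0324, adjusted p = 0.800). In black animals Ugdh averaged 171 ± 36.2 CPM with zileuton and 168 ± 29.6 CPM with vehicle (SD, n = 6 each), whereas in agouti animals it averaged 195 ± 60.6 CPM with zileuton (SD, n = 34) and 117 ± 32.3 CPM with vehicle (SD, n = 29). None of the 8 genes was called for coat colour itself, with an adjusted p of at least 0.784 for black or white against agouti (edgeR).

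Spread between animals also differed by less than the test could show for each of the 8 genes. Ugt1a1 came nearest, with an SD of log2 CPM of 0.30 in zileuton livers and 0.47 in vehicle livers (limma on absolute deviations, adjusted p = 0.356, unadjusted p = 0.00514). Over all genes 4 of 11857 (0.0337%) were called in that test.

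Across animals of 1 group, log2 CPM values of the genes were compared with each other and with markers of nuclear receptor activity, the clock score, the position in the run and the library total, in 232 relations, 116 in each group. For Ugt3a2 only the animals above its gap entered. After adjustment over the 232 relations, 7 passed in zileuton and 10 in vehicle animals (permutation test of Pearson's r, 100000 resamples). The 24 relations of the 8 genes with clock score, position or library total in each group were not among them.

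Ugt1a6a ran with Ugt1a6b and against Ugt1a9 in both groups. Pearson's r for Ugt1a6a with Ugt1a9 was -0.477 in zileuton animals (n = 49, permutation p = 5.50e-04, adjusted 0.0130) and -0.627 in vehicle animals (n = 41, permutation p = 2.00e-05, adjusted 0.00232). Spearman's rho was -0.472 with zileuton (permutation p = 7.10e-04, adjusted 0.0235) and -0.535 with vehicle (permutation p = 3.60e-04, adjusted 0.0151). Without the 2 animals farthest from the median of Ugt1a6a, r was -0.495 with zileuton and -0.561 with vehicle, and with run means removed it was -0.557 with zileuton and -0.570 with vehicle. The sign was the same in 4 of 5 zileuton runs and 2 of 3 vehicle runs with at least 6 animals. For Ugt1a6a with Ugt1a6b r was 0.435 with zileuton (permutation p = 0.00173, adjusted 0.0268) and 0.617 with vehicle (permutation p = 4.00e-05, adjusted 0.00232), with rho of 0.376 with zileuton (permutation p = 0.00819, adjusted 0.100) and 0.605 with vehicle (permutation p = 4.00e-05, adjusted 0.00464). Without the 2 farthest animals this r was 0.377 with zileuton and 0.556 with vehicle, and with run means removed 0.383 with zileuton and 0.572 with vehicle. Reads were divided between these copies, and reads of the common exons among all Ugt1a genes. The part of that division in the relations between Ugt1a genes was not tested. Ugt1a5 and Ugt1a1 ran together at r = 0.490 in vehicle animals (permutation p = 0.00119, adjusted 0.0197; rho 0.424, permutation p = 0.00625, adjusted 0.0853), and r was 0.465 without the 2 farthest animals and 0.510 with run means removed.

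**Figure D5:**
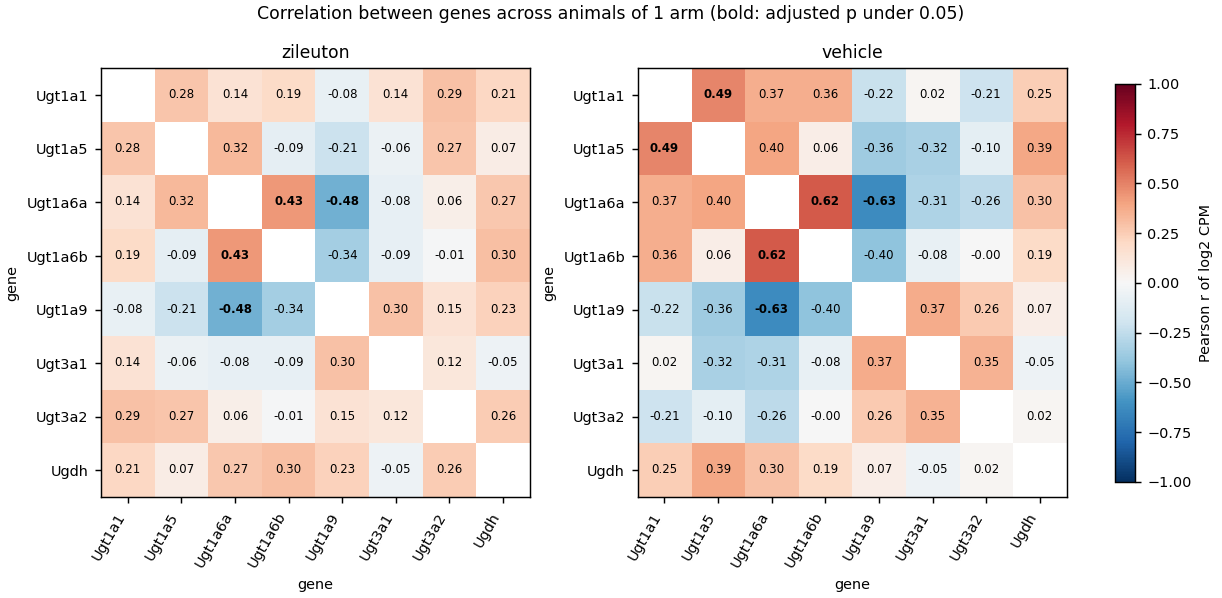
Pearson's r of log2 CPM between each pair of the 8 genes across 49 zileuton animals (left) and 41 vehicle animals (right), with 42 and 35 animals for pairs that include Ugt3a2; red is positive, blue negative, and bold marks an adjusted permutation p under 0.05. The strongest cells in both panels are Ugt1a6a with Ugt1a6b (0.435 and 0.617) and Ugt1a6a with Ugt1a9 (-0.477 and -0.627).

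Ugdh varied with 3 of the 8 markers of receptor activity in zileuton animals. Its r was 0.564 with Nqo1, a quinone reductase regulated by the stress factor NRF2 (permutation p = 3.00e-05, adjusted 0.00232; rho 0.569, permutation p = 3.00e-05, adjusted 0.00464). It was 0.519 with Cyp2c29 (permutation p = 2.10e-04, adjusted 0.00812; rho 0.542, permutation p = 1.20e-04, adjusted 0.00928) and 0.496 with Cyp2b10 (permutation p = 3.50e-04, adjusted 0.0116; rho 0.459, permutation p = 0.00117, adjusted 0.0285), both cytochromes P450 induced through the receptor CAR. Without the 2 farthest animals r was 0.569, 0.562 and 0.461. With run means removed it was lower, at 0.414, 0.344 and 0.312. Within the 5 zileuton runs of at least 6 animals, r with Nqo1 ran from -0.516 to 0.694, with the same sign in 3. The sign was the same in 5 of 5 of these runs for Cyp2c29 and for Cyp2b10. The other 5 markers did not pass in these animals, with r of 0.174 for Gclc, the other NRF2 marker, 0.217 for Cyp3a11, 0.283 for Cyp4a14, 0.334 for Cyp4a10 and 0.348 for Cyp1a2 (adjusted permutation p of 0.120 to 0.489). The relation of Ugdh with Cyp2c29 also passed in vehicle animals (r = 0.501, permutation p = 4.20e-04, adjusted 0.0122; rho 0.399, permutation p = 0.0102, adjusted 0.102; 0.455 without the 2 farthest animals, 0.485 with run means removed).

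Ugt1a1 had 5 such relations in vehicle animals, of which that with Cyp1a2, a P450 regulated by the aryl hydrocarbon receptor, was strongest (r = 0.592, permutation p = 4.00e-05, adjusted 0.00232; rho 0.552, permutation p = 3.00e-04, adjusted 0.0151). It fell to 0.413 without the 2 farthest animals and was 0.624 with run means removed. With Cyp2c29, Ugt1a1 gave r = 0.517 in vehicle animals (permutation p = 7.10e-04, adjusted 0.0137; rho 0.337, permutation p = 0.0320, adjusted 0.166), but 0.196 without the 2 farthest animals, so this relation rested on them. In zileuton animals Ugt1a1 with Cyp2c29 gave r = 0.474 (permutation p = 5.60e-04, adjusted 0.0130; rho 0.468, permutation p = 8.10e-04, adjusted 0.0235) and 0.443 without the 2 farthest, but 0.174 with run means removed, so it did not hold within runs. Ugt1a6b ran with Cyp1a2 in zileuton (r = 0.433, permutation p = 0.00185, adjusted 0.0268; rho 0.301, permutation p = 0.0351, adjusted 0.166; 0.384 without the 2 farthest, 0.306 with run means removed) and vehicle animals (r = 0.516, permutation p = 6.80e-04, adjusted 0.0137; rho 0.498, permutation p = 0.00123, adjusted 0.0285; 0.459 without the 2 farthest, 0.553 with run means removed). The remaining 3 relations of Ugt1a1 in vehicle animals were with Nqo1, Cyp4a14 and Cyp4a10, at r of 0.464, 0.542 and 0.502 (permutation p = 0.00208, 2.00e-04 and 8.60e-04, adjusted 0.0284, 0.00812 and 0.0153). Their rho was 0.446, 0.534 and 0.442 (permutation p = 0.00356, 3.90e-04 and 0.00397, adjusted 0.0635, 0.0151 and 0.0658). Their r was 0.451, 0.537 and 0.465 without the 2 farthest animals, and 0.505, 0.610 and 0.590 with run means removed. Differences in r between the groups were not tested.

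Each gene was also compared with 11985 others of mean CPM of at least 1, by the mean of the within-group Pearson correlations over 49 zileuton and 41 vehicle animals, and the 3 most alike are given as a description. For Ugdh these were Entpd5 (mean r 0.73), Srxn1 (0.61) and Abcc4 (0.58). For Ugt1a1 they were Abcc3 (0.62), Anpep (0.58) and Psap (0.58), and for Ugt1a9 Mogat1 (0.52), 2810474O19Rik (0.46) and Chpt1 (0.45). Ugt1a5 was most like Acacb (0.51), Snx12 (0.50) and Pnpla3 (0.47), and Wipi2 (0.44) and Adra1a (0.40) were among the 3 most like Ugt3a1. Ugt1a6a was most like Ugt1a6b (0.53), Scly (0.39) and Slco1a4 (0.37), and Ugt1a6b most like Txn1 (0.57), Gstm1 (0.55) and Ugt1a6a. These points share libraries and depth.

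The 3 genes most like Ugt3a2 all lie near it on chromosome 15. They were 6030458C11Rik (mean r 0.62, 3.44 Mb away), Wdr70 (0.60, 1.24 Mb) and 2410089E03Rik, now Cplane1 (0.58, 1.06 Mb), by RefSeq positions on GRCm38.p6. Above the Ugt3a2 gap alone, r was 0.50, 0.54 and 0.37 in zileuton animals (n = 42) and 0.47, 0.52 and 0.27 in vehicle animals (n = 35). Wdr70 averaged 4.28 ± 0.468 CPM (SD) in the 7 zileuton animals below the gap and 7.03 ± 1.58 CPM in the 42 above it. In vehicle animals Wdr70 averaged 4.70 ± 0.884 CPM in the 6 below and 7.15 ± 1.90 CPM in the 35 above. The means of 6030458C11Rik and 2410089E03Rik were also lower below the gap in both groups, by smaller ratios than for Wdr70. These genes were picked for their correlation with Ugt3a2 over all animals, including those below the gap. Lower means below the gap therefore follow from that choice and are not separate evidence. Of the 3 genes most like each other member, the only ones on the same chromosome were the Ugt1a6 copies for each other, Scly for Ugt1a6a (3.08 Mb) and Mogat1 for Ugt1a9 (9.46 Mb).

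Genes listed for UDP-sugar supply and transport, on either side of the Ugdh step, were mixed, with 2 of 11 higher, 2 lower and 7 not called. These counts lie near the shares over all genes tested, of which 14.4% were called higher and 14.8% lower. Slc35d1, which carries UDP-glucuronate into the endoplasmic reticulum, was higher at 160 ± 28.8 CPM with zileuton and 123 ± 15.9 CPM with vehicle (log2 fold change 0.38 ± 0.048, adjusted p = 1.16e-09). Pgm2, a phosphoglucomutase, was higher at 0.18 ± 0.053 (adjusted p = 0.00434). Ugp2, which makes the UDP-glucose that Ugdh consumes, did not pass, at 291 ± 55.4 CPM with zileuton and 280 ± 64.4 CPM with vehicle (0.05 ± 0.063, adjusted p = 0.565). Slc35b1, of the same transporter family as Slc35d1 (-0.20 ± 0.071, adjusted p = 0.0265), and Uxs1, which turns UDP-glucuronate into UDP-xylose (-0.17 ± 0.050, adjusted p = 0.00741), were lower. What Slc35b1 carries was not measured. In the pathway that uses free glucuronate, 2 of 7 genes were higher, 1 was lower and 4 were not called. Akr1a1, an aldehyde reductase of that route, was higher (0.23 ± 0.038, adjusted p = 1.42e-06), as was the xylulose kinase gene Xylb (0.12 ± 0.043, adjusted p = 0.0239). Gulo, the last enzyme of ascorbate synthesis in the mouse, was lower at 312 ± 92.3 CPM with zileuton and 406 ± 93.1 CPM with vehicle (-0.38 ± 0.081, adjusted p = 1.07e-04).

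Genes of glucuronide export, uptake and cleavage were higher in 5 of 8 cases and lower in 0, beside 14.4% and 14.8% of all genes tested. Abcc4, an export pump of the sinusoidal membrane, had the largest fold change of the list at 21.5 ± 12.1 CPM with zileuton and 8.94 ± 8.93 CPM with vehicle (1.27 ± 0.21, adjusted p = 1.41e-06). Abcc3, also sinusoidal, was at 547 ± 124 CPM with zileuton and 333 ± 118 CPM with vehicle (0.72 ± 0.082, adjusted p = 5.05e-11). Abcc2, the pump that exports bilirubin glucuronides into bile, was at 294 ± 81.4 CPM with zileuton and 207 ± 52.5 CPM with vehicle (0.50 ± 0.077, adjusted p = 1.83e-07). Among 4 genes listed for bilirubin formation, Blvrb, a biliverdin reductase, was higher (0.37 ± 0.085, adjusted p = 3.81e-04) and 3 were not called. These were Blvra, the other biliverdin reductase (-0.01 ± 0.038, adjusted p = 0.811), Hmox1 (-0.25 ± 0.12, adjusted p = 0.108) and Hmox2 (0.01 ± 0.036, adjusted p = 0.829). The medians of these lists were 0.05 for sugar supply, 0.01 for glucuronate use and 0.24 for export on the log2 scale, against -0.01 over all genes.

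Of 15 genes for known regulators of Ugt genes, 14 were tested, of which 1 was higher, 4 were lower and 9 were not called. Among all genes tested, 14.4% were called higher and 14.8% lower. Nr1i2, the receptor PXR, was higher at 83.4 ± 17.9 CPM with zileuton and 69.9 ± 9.06 CPM with vehicle (0.26 ± 0.057, adjusted p = 2.38e-04). Nr1i3, the receptor CAR (0.14 ± 0.071, adjusted p = 0.143), Ahr, the aryl hydrocarbon receptor (0.11 ± 0.082, adjusted p = 0.306), and Nfe2l2, the factor NRF2 (-0.02 ± 0.047, adjusted p = 0.803), did not pass. Foxa2, a factor that maintains hepatocyte gene expression, was lower (-0.28 ± 0.073, adjusted p = 0.00188). Of 8 markers of receptor activity, 7 were higher, with the largest changes in Cyp4a14 (1.84 ± 0.31, adjusted p = 1.25e-06), a marker of PPARα, and Cyp2c29 (1.72 ± 0.15, adjusted p = 1.24e-15). The lists of 11 and 5 clock genes that make up the score were called higher in 11 of 11 and lower in 5 of 5.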

How the data were processed

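Liver RNA of 90 mice was sequenced, 1 library per animal, and animals were grouped by the exposure in their labels. The deposited raw table holds estimated counts per gene, with reads that fit several features divided among them by the authors' counting step (76.7% of values are whole), and the second deposited table holds a normalised signal, those counts rounded and divided by 1 size factor per library. Partek, STAR and DESeq2 and the mm10 build appear, with no version, per the submitters' processing notes. Which tool counted, and with what annotation and strand setting, is not given in the sources used here.

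Estimated counts were rounded and fitted with edgeR 4.0.16 (TMM, filterByExpr, robust quasi-likelihood test, treatment as the only term) in R 4.3.3 over 13248 genes, and p-values were adjusted by Benjamini-Hochberg over all of them, with calls under 0.05. All tests were two-sided. Without another tool named, an adjusted p comes from this test. Its p-values set the difference between the groups against the spread between these animals. At a common biological coefficient of variation of 32.1%, that spread and not counting error sets the precision of these genes. Alternatives used DESeq2 1.42.0, limma 3.58.1 (voom with quality weights, and log2 of the deposited signal plus 1 or 10), other scalings and filters, covariates (coat, library plate row and column, run of 50 animal numbers, 24 surrogate variables from sva 3.50.0, clock score, position in the run), and subsets of libraries. The interaction with coat was tested in edgeR with coat and treatment as terms. Spread was tested with limma over 11857 genes with a mean log2 CPM (prior count 2) of at least 0. Shares and correlations were tested with 100000 permutations. Summing all 8 Ugt1a rows and restricting Ugt3a2 correlations to animals above its gap were added after seeing the data. The edgeR fit was tested on simulated data. No 2 libraries of the same group were copies, since the chi-square per gene was 50.6 even for the closest pair. Pairs across the groups were not compared. Of the gene symbols, 97.9% matched 1 gene in GENCODE M21.

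The members, the lists and the tests were chosen with earlier results of these data known. Named besides the 8 genes were the 2 called genes of each pathway list with the largest fold change in each direction, a fixed set (Nr1i2, Nr1i3, Ahr, Nfe2l2, Slc35d1, Ugp2, Abcc2, Abcc3), and the 3 genes most like each member. The uncalled genes of bilirubin formation were named as well. Of the genes and sequences these rules give, some are not reported here. Sequences come from GENCODE transcripts and RefSeq promoter tables.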

Additional observations from a re-analysis of the deposited data

Results flagged for a closer look

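Among 32 sets of 4 to 10 animals (each of the 8 genes in black and white animals of each group), 1 animal stood apart from its set, and chance alone sets apart about 1 in 20 such sets. It was the highest of 6 black vehicle animals in Ugt1a1, at 1489 CPM, with the next at 775 CPM, so that the gap took 0.698 of the whole range against a critical value of 0.625. The same animal was the highest of all 41 vehicle animals in Ugt1a1.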

How the results depend on the processing

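Scaling, filters and tools left 4 of the 8 genes called, and the 3 other scalings shifted the median of all genes by at most 0.01 on the log2 scale. With the clock score as a term 384 genes (239 higher, 145 lower) and 2 of the 8 were called, and with the position in the run 217 (166 higher, 51 lower) and 0 of the 8, against 3878 and 4 without them. The cause was not tested, and both terms follow the groups. Leaving out each library gave 3754 to 4082 genes and 3 to 4 of the 8. Of the single-gene values, Ugt1a5 lost its call in 10 of 25 alternatives, Ugt1a9 in 2, and Ugt1a1 and Ugdh in 1 each. No called value changed sign. The difference in the Ugt1a1 share was 3.84 percentage points without run 4 (adjusted permutation p = 0.0509, over a range of 0.00207 to 0.0509), where fewer animals entered. Without the 9 lowest totals 13 genes were called for spread, against 4, and 0 of the 8. By Spearman's rho 6 vehicle relations passed, against 10: 5 of these 10, and Ugdh with Ugt1a5 (rho 0.475, permutation p = 0.00200, adjusted 0.0422; r = 0.389, adjusted 0.111). Of the r values, 7 moved by 0.1 or more without the 2 farthest animals or with run means removed. Each animal received 1 treatment, so no paired analysis was possible. The replicate numbers used here are not in the labels and follow the animal numbers within each group. Single ages, litters and dosing times were not used here, and counts in the common Ugt1a exons were divided by the authors' counting, so single Ugt1a values are less certain than their sum.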

Other observations

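Ugt1a10, a further gene of the Ugt1a locus in the table, was split at its widest gap in the same way as Ugt3a2. In zileuton livers 30 animals lay between 0.732 and 7.81 CPM and the other 19 between 63.7 and 172 CPM. In vehicle livers 25 animals lay between 1.502 and 7.45 CPM and the other 16 between 43.8 and 127 CPM. The low animals were 61.2% of the zileuton group and 61.0% of the vehicle group. Ugt1a10 held 1.79% of the counts of the 8 Ugt1a genes in zileuton livers and 1.70% in vehicle livers, and Ugt1a2 and Ugt1a7c each held under 0.06% in both. No relation of Ugt1a10 with the other genes was computed, and the subsets were not tested.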
